A study of Homo sapiens with 4 samples.

Results

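IFITM1, IFITM2 and IFITM3, which encode interferon-induced transmembrane proteins, and BST2, which encodes tetherin, were followed in SCC13 cells with and without an shRNA against CELF2. These 4 genes were taken by their symbols from a deposited table of 60617 genes, all 4 had a row, and all 4 passed the filter on low counts. They were chosen by their measured CPM in this same comparison, so those values are given as a description, with no p-value.

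PolyA RNA was sequenced from SCC13, an established line of human skin squamous carcinoma cells, grown in CnT-07 medium and labelled WT for genotype. Lentivirus was used in both groups: it carried a scrambled shRNA (shScr) in the 2 control libraries and an shRNA directed at CELF2, an RNA-binding protein, in the 2 knockdown libraries. Nothing in the labels says that replicates were separate cultures, so the p-values cover the spread among these libraries alone, and that spread may be technical. The sources used here do not say whether both knockdown libraries carried the same shRNA sequence or how long after infection the RNA was taken.

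The libraries held 17649090 to 27898889 counts. CELF2 itself was counted 1 time in control replicate 1 and 0 times elsewhere; since 3 counts correspond to 0.108 to 0.170 CPM (reads of the gene scaled to a common library total), its counts cannot serve as a check of the labels. The keratinocyte markers were all present: KRT5 and KRT14, the basal keratins, reached 5455 and 2955 CPM in the library where they were lowest, and TP63, the transcription factor of basal epidermis, 212 CPM. PTPRC, the common leukocyte antigen, had 0 counts in every library, as had CLEC4C and LILRA4, which mark the plasmacytoid dendritic cells for which BST2 is also a marker. In all, 3 of 5 plasmacytoid dendritic cell markers and 5 of 8 other immune markers had 0 counts throughout. The rest included IL3RA, a plasmacytoid marker with 3 counts per control library against 15 and 17 after knockdown. TCF4, of the same list, went from 15.0 and 12.0 to 9.61 and 9.30 CPM. Of the other immune markers, CD14 went from 1.21 and 0.356 to 10.65 and 2.02 CPM. CSF1R went from 9.89 and 5.28 to 13.9 and 6.90 CPM. In RNA from whole cultures, fewer cells that express a gene and less of its RNA per cell cannot be told apart.

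As background, interferons bind receptors at the cell surface whose kinases JAK1 and TYK2 activate transcription factors, among them STAT2. With IRF9 these bind a short promoter element, the interferon-stimulated response element, and switch on many genes, the 4 described here among them. The IFITM proteins are small membrane proteins that hinder the fusion of viral with cellular membranes; IFITM1 sits mostly at the cell surface, and IFITM2 and IFITM3 mostly in endosomes. Tetherin has a transmembrane segment at 1 end and a lipid (GPI) anchor at the other, and holds budding enveloped viruses at the cell surface.

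The response element motif was present in each of the 3 promoters that could be read. Promoters (250 bases before to 50 after the gene start) came from RefSeq (GRCh38.p14), which matched IFITM1, IFITM3 and BST2; IFITM2 had no entry. The motif searched for the response element was GAAA, any 2 bases, then GAAA, on both strands. It occurred 2 times in each of the 3 promoters, while 3.57% of 35116 promoters of the same length held it at least once and 0.259% at least 2 times. The sites are shown because interferon is known to act through elements of this kind. Each line is a 30-base stretch read 5′ to 3′ on the strand of the gene, with the motif in capitals.
IFITM1 site 1: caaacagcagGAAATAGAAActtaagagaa
IFITM1 site 2: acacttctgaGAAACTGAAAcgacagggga
IFITM3 site 1: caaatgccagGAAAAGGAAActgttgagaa
IFITM3 site 2: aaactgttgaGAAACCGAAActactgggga
BST2 sites 1 and 2: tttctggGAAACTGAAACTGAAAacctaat
The IFITM1 stretches lie at chr11:313990-314019 and chr11:314024-314053 (plus strand), with the motif from -40 to -31 and from -6 to 4 relative to the RefSeq start. Those of IFITM3 lie at chr11:320893-320922 and chr11:320876-320905 (minus strand), with the motif from -52 to -43 and from -35 to -26. In BST2 the matches overlap, sharing their middle GAAA from -130 to -115, at chr19:17405738-17405767 (minus strand). The same letters, GAAACTGAAA, stand in IFITM1 site 2 and in both BST2 matches. Of 39 other interferon-stimulated genes with a promoter in the table, 27 (69.2%) held the motif and 15 held it 2 or more times. A second motif, TTC, any 3 bases, then GAA, was also searched. It occurred in the promoters of IFITM1 and BST2 but not in that of IFITM3, and in 7.66% of the 35116 promoters. A match describes the letters only, and binding was not measured here.

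IFITM1 (ENSG00000185885, a protein coding gene of GENCODE v29 on the plus strand of GRCh38 chromosome 11, 313506 to 315272) was the member with the largest difference. Control replicates 1 and 2 gave 70 and 54 counts, knockdown replicates 1 and 2 gave 276 and 793. In CPM, normalised for library composition, the controls stood at 2.50 and 3.20 and the knockdown libraries at 13.6 and 33.4. Both knockdown libraries lay well above both controls, and the knockdown replicates themselves stood 2.45-fold apart, against 1.28-fold between the controls. The mean went from 2.85 ± 0.498 CPM (SD, n = 2) to 23.5 ± 13.97 CPM (SD, n = 2), a log2 fold change of 3.05 ± 0.46 (SE of the fit), or 8.29-fold. Between single libraries the ratio ran from 4.25-fold to 13.3-fold. Without knockdown replicate 2 the log2 fold change was 2.26, and without knockdown replicate 1 it was 3.57. Some low markers of other cell types were also higher in the knockdown: the summed CPM of 6 fibroblast markers was 13.2 and 16.3 for the controls against 38.0 and 21.1 for the knockdown, nearly all of it COL1A1, with COL1A2, COL3A1, DCN and LUM at 0, and that of 5 endothelial markers was 0.679 and 0.356 against 1.82 and 2.23. Melanocyte markers summed to 8.82 and 6.11 CPM against 9.02 and 9.04, with MLANA, TYR and SOX10 at 0. Markers of other immune cells summed to 11.1 and 5.70 against 24.6 and 8.92. Plasmacytoid dendritic cell markers summed to 15.1 and 12.2 against 10.3 and 10.01, nearly all of it TCF4, while IL3RA alone was higher in the knockdown. The part of such cells in the IFITM1 values was not tested.

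IFITM3 (ENSG00000142089, protein coding, minus strand of chromosome 11, 319669 to 327537), which acts in endosomes, had the most reads of the 4 and a far smaller fold. It stood at 286 and 549 CPM in the controls and at 588 and 659.7 CPM in the knockdown. Control replicate 2 was closer to the knockdown libraries than to control replicate 1, so the difference between the means, 417 ± 186 against 624 ± 50.8 CPM (SD, n = 2 each), rests on 1 low control. Its log2 fold change was 0.58 ± 0.30 (SE) with all libraries; it became 0.18 when control replicate 1 was left out, and 1.14 when control replicate 2 was.

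IFITM2 (ENSG00000185201, protein coding, plus strand of chromosome 11, 307631 to 315272), the close relative of IFITM3, had the same order of libraries. It was at 100.1 and 178 CPM in the controls and at 186 and 208 CPM in the knockdown, and control replicate 1 was again the low library. The means were 139 ± 55.1 and 197 ± 15.4 CPM (SD, n = 2 each), with a log2 fold change of 0.51 ± 0.27 (SE), which became 0.14 with control replicate 1 left out and 0.99 with control replicate 2 left out. The summed CPM of the 8 keratinocyte markers was likewise lowest in control replicate 1 (12040, against 19090 in control replicate 2 and 26590 and 18160 in the knockdown); its part in the IFITM2 and IFITM3 values was not tested.

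BST2 (ENSG00000130303, protein coding, minus strand of chromosome 19, 17402939 to 17405648) was nearly level. It had 213 and 196 CPM in the controls and 219 and 231 CPM in the knockdown, so that all 4 libraries lay within 1.18-fold of each other. The means were 204 ± 11.9 and 225 ± 8.83 CPM (SD, n = 2 each), and the log2 fold change was 0.14 ± 0.16 (SE).

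**Figure D1:**
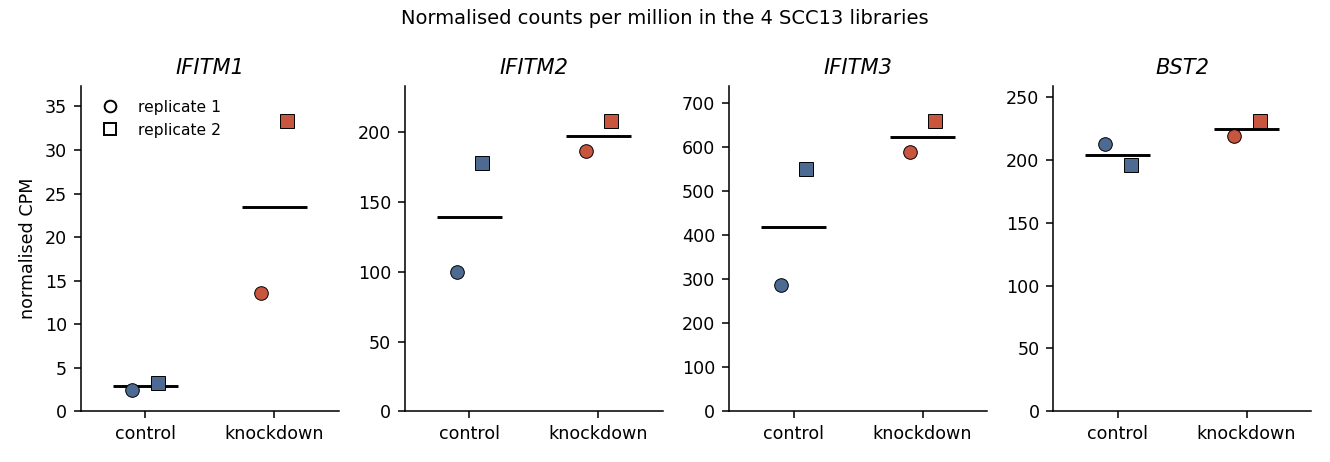
Normalised CPM (vertical axes, each from 0) of the 4 genes in the control and knockdown libraries; circles are replicate 1, squares replicate 2 and black bars group means. IFITM1 goes from 2.50 and 3.20 to 13.6 and 33.4, IFITM2 and IFITM3 have 1 low control, and BST2 stays between 196 and 231.

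In each of the 4 genes both knockdown libraries were above both controls, as they were in 27.1% of the 15171 tested genes; in 27.8% of these both were below. Across the table, 0.877% of tested genes passed an adjusted p of 0.05 in edgeR's quasi-likelihood test and 22.1% had an unadjusted p under 0.05. With all 4 libraries 1 of the 4 members, IFITM1, was among the genes that passed; it was not among them without control replicate 1, without knockdown replicate 2 or by limma-voom. This comparison chose the members, so these counts are no test of them and nothing is read from them.

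Set per length of exon, the order of levels was the same in all 4 libraries: IFITM3 highest, then BST2, IFITM2 and IFITM1. In TPM, the counts per kilobase of exon scaled to a common total, IFITM3 had 728 and 1273 in the control libraries, and 1467 and 1741 after knockdown. BST2 had 653 and 547 in the control libraries, and 657 and 735 after knockdown. IFITM3 and BST2 overlapped slightly over all 4 libraries, since the lowest IFITM3 value was under the highest BST2 value, but not within a group. IFITM2 had 223 and 361 TPM in the controls and 406 and 480.2 TPM in the knockdown, below BST2 in every library. IFITM1 had 7.95 and 9.27 TPM in the controls and 42.4 and 109.9 TPM in the knockdown, so its highest value was under the lowest of IFITM2. By TPM IFITM3 was above 99.1% to 99.6% of tested genes in each library, whereas IFITM1 went from above 37.6% and 42.5% of them in the controls to above 75.5% and 90.1% in the knockdown.

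The make-up of the IFITM reads differed between the groups mainly in IFITM1. Its share of the counts of the 3 IFITM genes was 0.644% (Wilson 95% interval 0.510% to 0.812%) and 0.439% (0.337% to 0.572%) in the controls, and 1.73% (1.54% to 1.94%) and 3.70% (3.46% to 3.96%) in the knockdown. The intervals cover counting error only, since reads are not independent molecules. IFITM3 held 73.2% to 75.2% of these counts in every library and IFITM2 23.1% to 25.8%. The ratio of IFITM3 to IFITM2 in TPM accordingly stayed between 3.27 and 3.63 while both genes moved up and down together, and that of IFITM2 to IFITM1 went from 28.0 and 38.9 in the controls to 9.59 and 4.37 in the knockdown.

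These 3 genes lie next to each other on chromosome 11 and are partly identical, which bears on how their reads can be divided. The stretches below are the first 150 coding bases of the second coding exon in GENCODE v29 (GRCh38), shown because they begin with a run that is identical in all 3 genes. Capitals in IFITM3 and IFITM2 mark the 9 bases at which these differ from each other, and capitals in IFITM1 the 27 bases at which it differs from IFITM3.
IFITM3: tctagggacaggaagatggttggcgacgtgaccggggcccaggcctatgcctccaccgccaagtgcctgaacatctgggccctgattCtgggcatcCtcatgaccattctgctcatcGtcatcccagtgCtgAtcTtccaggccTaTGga
IFITM2: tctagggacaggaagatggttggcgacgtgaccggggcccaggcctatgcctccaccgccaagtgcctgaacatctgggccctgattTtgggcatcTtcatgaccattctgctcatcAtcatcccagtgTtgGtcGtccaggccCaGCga
IFITM1: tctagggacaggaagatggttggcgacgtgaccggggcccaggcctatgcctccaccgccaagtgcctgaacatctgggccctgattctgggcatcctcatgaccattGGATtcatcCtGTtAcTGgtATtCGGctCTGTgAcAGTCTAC
They lie at chr11:319841-319990 (IFITM3, minus strand), chr11:309013-309162 (IFITM2, plus strand) and chr11:314922-315071 (IFITM1, plus strand), and their first 87 bases are the same in all 3 genes. Over the whole coding sequence, IFITM2 and IFITM3 were identical at 93.9% of 396 aligned bases. Of all stretches of 75 bases in the annotated transcripts, 29.8% of those of IFITM1, 24.2% of those of IFITM2 and 23.9% of those of IFITM3 also occurred in a transcript of another gene, on either strand, and 0 of 1117 did for BST2. The annotation adds to this: 1 IFITM2 transcript ends in the last exon of IFITM1, so 351 exon bases, 32.5% of those of IFITM1, belong to both genes. For IFITM3, 287 exon bases (21.3%) are also covered by the opposite-strand lincRNA AC136475.5, which had 0 to 4 counts in each library. Of the 321 shared stretches of IFITM3, 213 occurred in AC136475.5, 87 in IFITM2 and 67 in IFITM1. The counts of the 3 IFITM genes are therefore uncertain, since how shared reads and strand were treated is not given, and those of BST2 have no such overlap.

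Other genes of the same family were almost silent. IFITM5, which is known from bone, had 0 counts in every library, as had the pseudogenes IFITM8P and IFITM9P, and IFITM10 had 0 to 1 counts per control library and 4 to 7 per knockdown library. The pseudogene IFITM4P had 1 to 2 counts per control library and 8 to 9 per knockdown library. Of 9 other genes of the CD225 family, to which the IFITM proteins belong, 3 passed the filter on low counts. These 3 were PRRT1, PRRT2 and TMEM91, with at most 4.14 CPM in any library. In edgeR's quasi-likelihood test with Benjamini-Hochberg adjustment 0 of the 3 passed, against 0.877% of all tested genes. An unadjusted p under 0.05 was found for 0, against 22.1% of all. DESeq2 called 0 and limma-voom 0. With 3 genes nothing is read from these counts.

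Among other interferon-stimulated genes, IFITM1 sat near the top by fold and the other 3 members near the top by level. A list of 50 such genes had 49 that were tested; 4 rose (adjusted p of 0.0483 for each in edgeR's quasi-likelihood test), 0 fell and 45 did not pass. The background share of tested genes that rose was 0.606%, while by DESeq2 772 of all 15171 tested genes rose. The median log2 fold change was 0.94 over the list, against -0.0037 over all tested genes, and 47 of the 49 values were above 0, as were 49.6% of all. In 37 of the 49 both knockdown libraries were above both controls, against 27.1% of all tested genes. The list holds genes that earlier results of these same libraries had shown to be higher, so it is not independent evidence of a direction.

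The 4 that rose were MX1, a GTPase that blocks viruses inside the cell (log2 fold change 1.76 ± 0.26, SE), OAS1, a sensor of double-stranded RNA (1.71 ± 0.24), IFI6, a mitochondrial and endoplasmic reticulum protein (1.55 ± 0.25), and IFIT1, which binds viral RNA (1.40 ± 0.23). MX1 had 7.61 and 6.47 CPM in the controls and 20.02 and 27.7 CPM in the knockdown. The exons of MX1 and OAS1 overlap another gene, and OAS1, matched by its Ensembl ID, carries the symbol of that other gene in the deposited table, so their counts are uncertain. None of the 4 passed without control replicate 1 or without knockdown replicate 2, where the test called 0 genes of this list, nor by limma-voom (0 of 49), while DESeq2 called 19.

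By log2 fold change 1 of the 49 genes was above IFITM1: IFI44L, a gene named here after its values were seen, which went from 0.536 and 0.416 CPM to 2.86 and 12.4 CPM (log2 fold change 3.97 ± 0.75). For IFITM3, 32 of the 49 had a larger value, for IFITM2 33 and for BST2 45. By TPM IFITM3 was above all 49 in each library; BST2 was too, save for LGALS3BP, a secreted glycoprotein also named after its values were seen, which stood at 902 TPM in knockdown replicate 1. IFITM2 was below LGALS3BP and above the other 48 genes in every library. IFITM1 had 25 of the 49 above it in each control, 7 in knockdown replicate 1 and 5 in knockdown replicate 2.

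**Figure D2:**
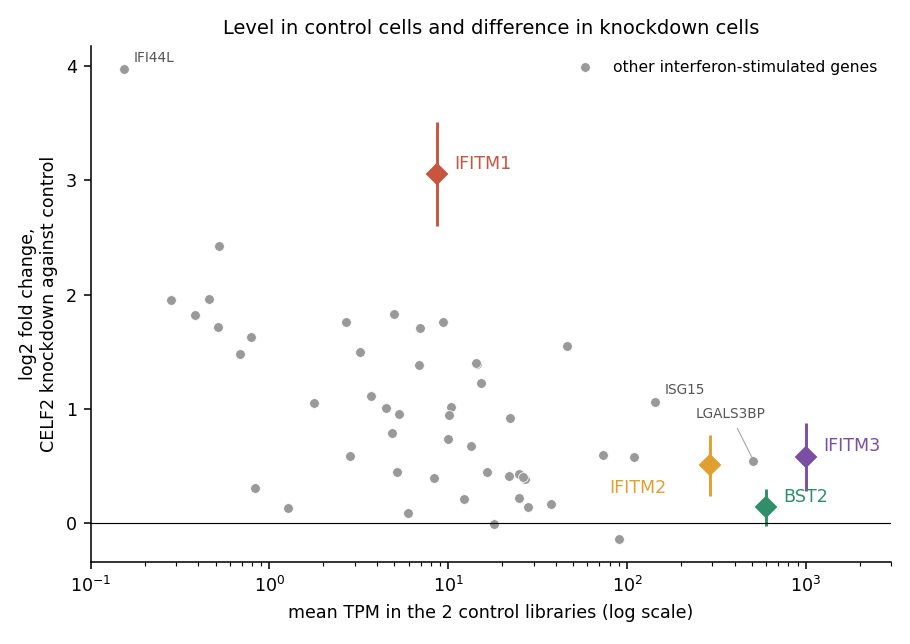
Mean TPM in the 2 control libraries (horizontal, log scale) against the log2 fold change of CELF2 knockdown against control (vertical; bars on the members are the SE of the fit) for the 4 members (diamonds) and 49 other interferon-stimulated genes (circles). IFITM3, BST2 and IFITM2 lie at the right with log2 fold changes of 0.58, 0.14 and 0.51, and IFITM1 lies at 3.05 from a mean of 8.61 TPM.

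**Figure D3:**
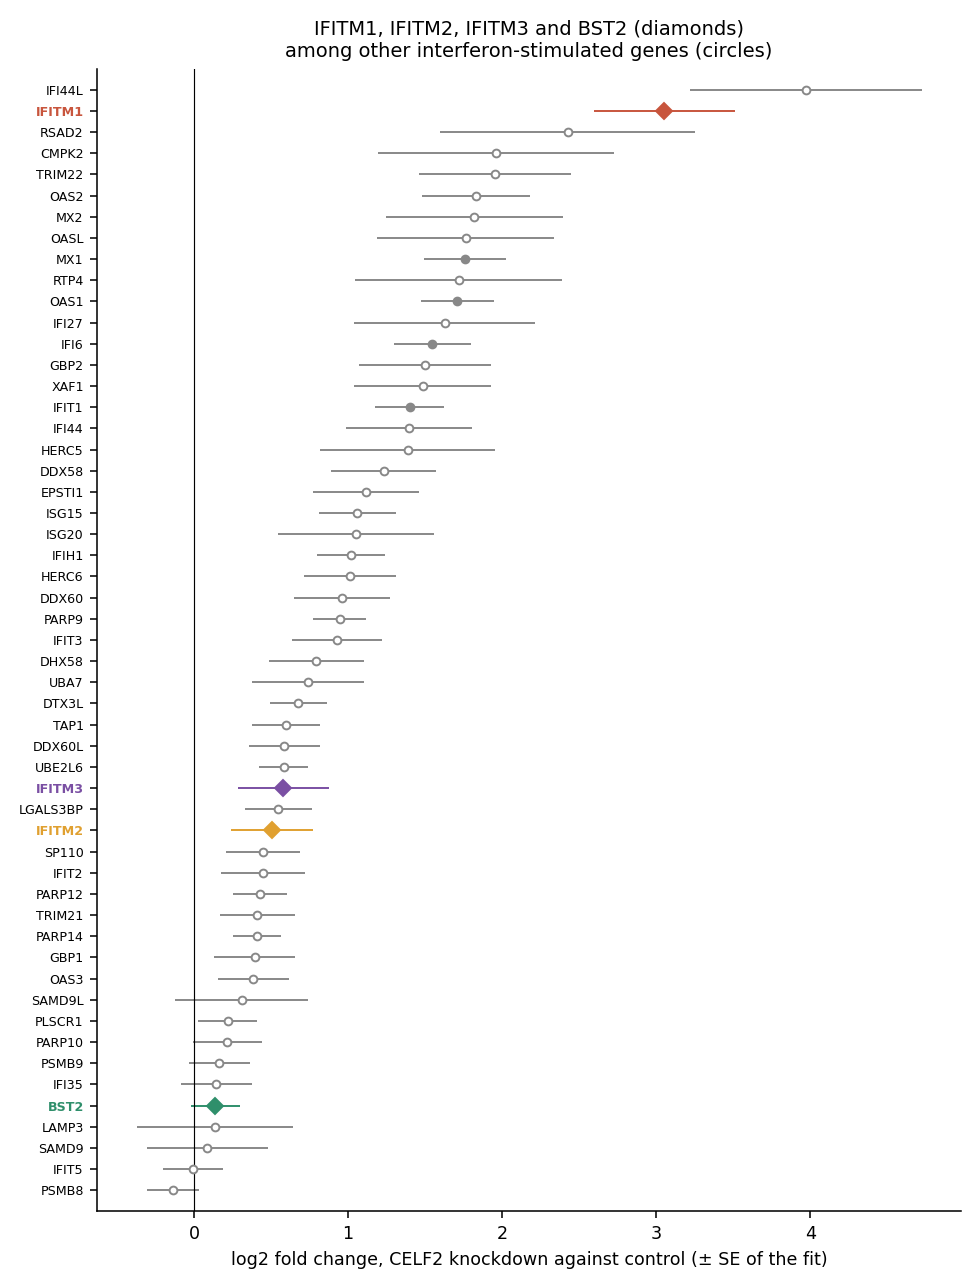
Log2 fold change of CELF2 knockdown against control with the SE of the fit (horizontal) for the 4 members (diamonds) and 49 other interferon-stimulated genes (circles, filled where the adjusted p passed 0.05), ordered by value. IFITM1 is second to IFI44L, IFITM3 and IFITM2 lie at 0.58 and 0.51, and BST2 at 0.14 near the lower end.

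Fold changes were also set beside the matches to the response element motif. IFITM1 and IFITM3 held it at 2 separate sites and BST2 in 2 overlapping matches, with log2 fold changes of 3.05, 0.58 and 0.14. The part of the motif in these values was not tested. Over 298 tested genes with the motif the median log2 fold change was 0.022, and 5 rose and 0 fell (edgeR quasi-likelihood test); over 38 with 2 or more matches, the 3 members included, the median was 0.43 and 3 rose; over 10291 with none it was -0.012, and 52 rose and 32 fell. IFITM1, a member chosen by these same values, is 1 of the 5 and 1 of the 3 that rose. The list of other interferon-stimulated genes, where 15 of 39 promoters held 2 or more matches, was also chosen with earlier results known. These medians and counts are therefore a description, and no test was made between the groups of promoters.

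Transcripts of the interferons themselves were barely counted. Of 21 interferon genes, 16 had 0 counts in every library, among them IFNK, the interferon made by keratinocytes. IFNE, an epithelial interferon, was the 1 gene that passed the filter, with 0.643 and 0.772 CPM in the controls and 0.740 and 0.673 CPM with the CELF2 shRNA (log2 fold change 0.0076 ± 0.50; 0 of 1 passed in the edgeR quasi-likelihood test, at an unadjusted p under 0.05 and by limma-voom, and DESeq2 gave it no adjusted p). IFNB1 had 0 to 2 counts per library, under the floor of 3 counts in each library. IFNL1, 0 in both controls, reached 2 and 7 counts in knockdown replicates 1 and 2.

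Among receptors and signalling proteins of the interferon pathway, log2 fold changes ran from -0.62 to 1.48. Of 20 tested genes 0 passed the threshold (edgeR quasi-likelihood test with Benjamini-Hochberg adjustment), against 0.877% of all tested genes. In the same test 6 had an unadjusted p under 0.05, against 22.1% of all tested genes. DESeq2 called 1 (IRF1), where it called 1386 of all 15171 tested genes, and limma-voom called 0. The median log2 fold change was 0.29. IRF1, a transcription factor that is itself induced by interferon, had 12.6 and 13.4 CPM in the controls and 28.6 and 24.4 CPM in the knockdown, a log2 fold change of 1.03 ± 0.21 (edgeR quasi-likelihood adjusted p = 0.0616). STAT2 had a log2 fold change of 0.53 ± 0.18 and the kinase TYK2 of -0.62 ± 0.17. The highest values, those of SOCS1 (1.48 ± 0.59) and SOCS3 (1.42 ± 0.58), feedback inhibitors of cytokine signalling named here after their values were seen, also had both knockdown libraries above both controls, SOCS1 on 8 to 33 counts per library.

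Other restriction factors, proteins that block viruses at entry, membranes or release or, like MX1, inside the cell, included 21 tested genes. Of these 1 rose (MX1) and 0 fell (edgeR quasi-likelihood test), where 0.606% of all tested genes rose and 0.27% fell. Of the list's 25 genes, 5 also stand in the interferon-stimulated list. The median log2 fold change of the tested genes was 0.41. By DESeq2, 1386 of all 15171 tested genes were called. MX1 was not called without control replicate 1, without knockdown replicate 2 or by limma-voom, and DESeq2 called 7 genes of the list. LY6E, a GPI-anchored surface protein like tetherin in its anchor and named here after its values were seen, had 244 and 227 CPM in the controls and 370.3 and 371 CPM in the knockdown, a log2 fold change of 0.66 ± 0.16 (edgeR quasi-likelihood adjusted p = 0.0780).

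Genes whose proteins work with or modify the IFITM proteins differed in both directions, with log2 fold changes from -0.68 to 0.68. Of 11 tested genes 0 passed (edgeR quasi-likelihood test) and 3 had an unadjusted p under 0.05, against 0.877% and 22.1% of all tested genes. DESeq2 called 2 (CD9 higher, ZMPSTE24 lower), where it called 1386 of all 15171 tested genes, and limma-voom called 0. The median log2 fold change was -0.066. In 3 both knockdown libraries were above both controls and in 4 below, against 27.1% and 27.8% of all tested genes. ZMPSTE24, a membrane protease that IFITM proteins need for their antiviral action, had 102 and 83.2 CPM in the controls and 59.95 and 56.1 CPM with the CELF2 shRNA (log2 fold change -0.68 ± 0.18). ZDHHC20, a palmitoyltransferase that modifies IFITM3, had a log2 fold change of -0.51 ± 0.19, and CD9, a tetraspanin, of 0.68 ± 0.17. For BST2, a list of known partners and of enzymes that attach GPI anchors had 8 tested genes: 0 passed (edgeR quasi-likelihood test), 1 had an unadjusted p under 0.05, DESeq2 called 1 (GPAA1, lower) and limma-voom 0, with a median of -0.053. GPAA1, a subunit of the transamidase that attaches the anchor, had 85.8 and 93.5 CPM in the controls and 54.9 and 46.7 CPM with the CELF2 shRNA (log2 fold change -0.82 ± 0.17; edgeR quasi-likelihood adjusted p = 0.0627), while PIGS, another subunit, had 0.24 ± 0.17 and ARHGAP44, which binds tetherin, 0.39 ± 0.27.

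Neighbouring genes on the chromosome had smaller log2 fold changes than IFITM1. Of 19 other genes whose start lies within 100 kb of the IFITM cluster 8 were tested. In edgeR's quasi-likelihood test 0 of these passed and 0 had an unadjusted p under 0.05, against 0.877% and 22.1% of all tested genes. DESeq2 called 0 and limma-voom 0. With so few genes nothing is read from these counts. Their log2 fold changes ran from -0.33 to 0.96, with a median of 0.041. The nearest tested protein coding genes on either side were PGGHG, a glucosidase of collagen sugars (-0.085 ± 0.32), and B4GALNT4, a glycosyltransferase (-0.15 ± 0.18). The highest value, 0.96 ± 0.54, was that of AC136475.2, again named for its value, an antisense gene just upstream of IFITM1 with 12 to 43 counts per library.

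Around BST2, 8 of 17 neighbours were tested and 0 passed the edgeR quasi-likelihood test, against 0.877% of all tested genes. In that test 3 had an unadjusted p under 0.05, against 22.1% of all tested genes. DESeq2 called 1 (ABHD8), where it called 1386 of all 15171 tested genes, and limma-voom called 0. Log2 fold changes ran from -0.21 to 1.35, with a median of 0.60. BISPR, a long noncoding RNA read in the opposite direction from a start 0.038 kb away and known as an interferon-induced partner of BST2, was counted 140 and 99 times in the controls, and 211 and 210 times with the CELF2 shRNA. In CPM its groups did not overlap, and its log2 fold change was 0.82 ± 0.29 (edgeR quasi-likelihood adjusted p = 0.158), next to 0.14 ± 0.16 for BST2. MVB12A, whose start lies 0.074 kb away and whose exons overlap those of BISPR, had 0.15 ± 0.22, and the shared exons make the counts of both uncertain. On the other side the nearest tested gene was GTPBP3, a tRNA-modifying enzyme (-0.21 ± 0.18).

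**Figure D4:**
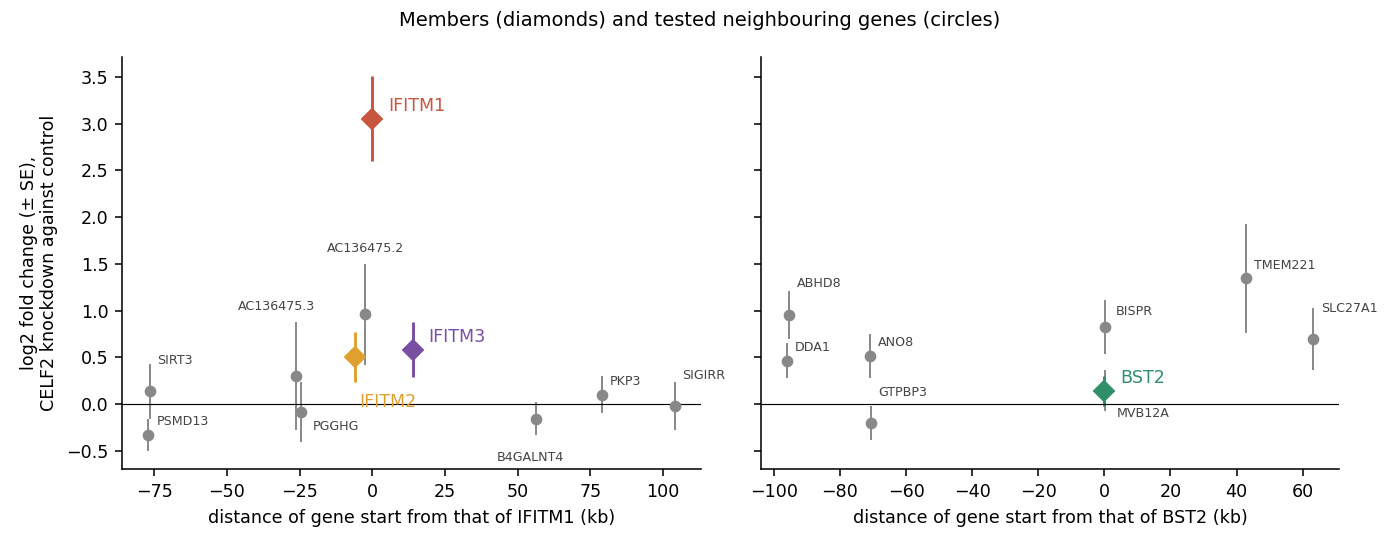
Log2 fold change of CELF2 knockdown against control with the SE of the fit (vertical) by the distance of each gene's start, in kb, from that of IFITM1 (left) or BST2 (right); diamonds are the members and circles the tested neighbours. IFITM1 stands at 3.05 while its tested neighbours lie between -0.33 and 0.96, and BISPR stands at 0.82 beside BST2 at 0.14.

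Profiles most like each member were searched among 10918 other tested genes (those averaging 5 CPM or more), by the root mean square difference of log2 CPM after each gene was centred on its own mean over the 4 libraries. IFITM2 and IFITM3 were 0.061 apart, and each was the fourth nearest gene of the other. The 3 genes nearest to IFITM2 were WARS, the tryptophanyl-tRNA synthetase (0.037), DNHD1 (0.054) and KCNG1 (0.057), and those nearest to IFITM3 were DNHD1 (0.040), CA13 (0.047) and WARS (0.048). WARS had 146 CPM in control replicate 1 against 273 in control replicate 2 and 289.9 and 308 in the knockdown, the same single low library. For IFITM1 the nearest were IGFBP4 (0.329), SLC17A7 (0.339) and SBK1 (0.391), and IFITM2, IFITM3 and BST2 were 1.23, 1.20 and 1.44 away. Profiles were not scaled by their spread, so distances tend to be larger for a gene that varies more. The distances of different members are therefore not compared. The genes nearest to BST2 were AADAT (0.0042), PTPRA (0.0090) and POLDIP2 (0.0096), all nearly level. With 4 libraries in 2 groups, such likeness is a description only.

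**Figure D5:**
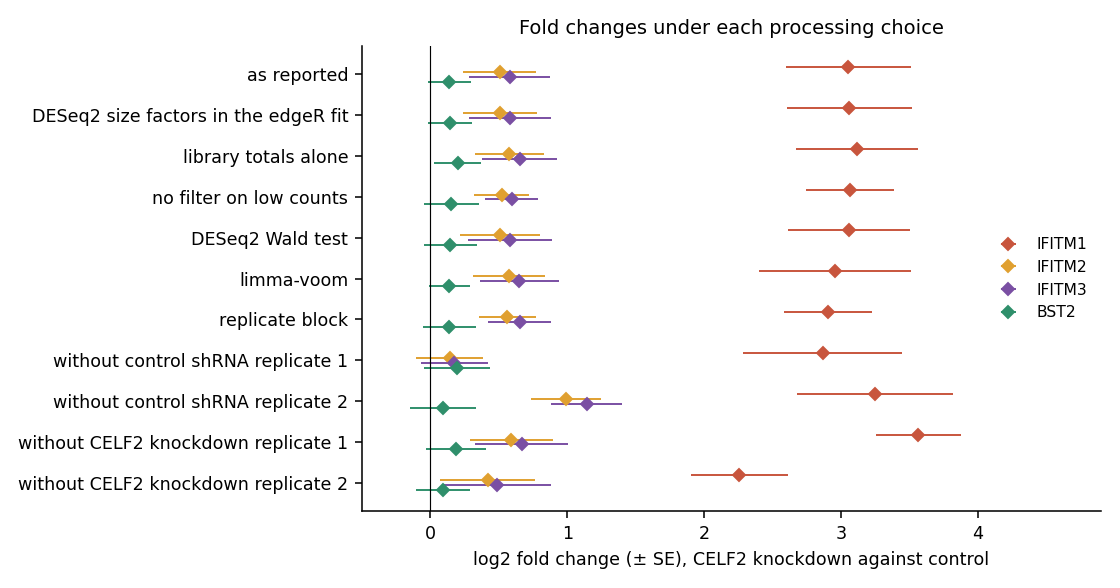
Log2 fold change of CELF2 knockdown against control with its SE (horizontal) for the 4 members under each of 11 ways of processing the counts (vertical), 4 of which leave out a library. IFITM1 lies between 2.26 and 3.57, IFITM2 between 0.14 and 0.99, IFITM3 between 0.18 and 1.14, and BST2 between 0.093 and 0.20.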

How the data were processed

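The authors deposited raw read counts per Ensembl gene for 4 SCC13 libraries, 2 per group. The submitters' processing notes name HISAT2, edgeR and GRCh38 without versions. The counting program, annotation release, strand setting and handling of shared reads were not given in the sources used here. Groups and replicate numbers came from the sample titles. The 4 genes and all lists were chosen with earlier results of these data known.

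Counts were fitted with edgeR 4.0.16 (R 4.3.3): TMM normalization, filterByExpr with a minimum count of 10 (CELF2 kept whatever its counts), the quasi-likelihood test and Benjamini-Hochberg adjustment at 0.05 over 15171 genes. The test was checked on simulated counts. TPM used exon lengths from GENCODE v29, which held 58542 of the 60617 IDs. DESeq2 1.42.0 and limma-voom (limma 3.58.1), other scalings, no filter, a replicate block and leaving out each library were alternatives. Replicates differed by far more than counting noise (chi-square per degree of freedom 54.3 in the controls and 48.1 in the knockdown).

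Genes outside the members were named where they passed the test, else as the 3 smallest p per list, as nearest neighbours on the chromosome, or as the 3 most like profiles. Most exceptions are marked. Those not marked include the interferons IFNK, IFNB1 and IFNL1, and ABHD8 and MVB12A near BST2. Marker lists also covered fibroblasts, melanocytes, endothelial and other immune cells. COL1A2, DCN, LUM, TYR, MLANA and CD3E had 0 counts in every library. Others were counted: COL1A1 at 271 to 760 per library, MITF at 67 to 178, CSF1R at 89 to 282 and CD14 at 6 to 216. No endothelial marker was at 0 in every library, and VWF had 0 counts in both controls and 10 and 14 in the knockdown.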

Additional observations from a re-analysis of the deposited data

How the results depend on the processing

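All 4 members kept a positive log2 fold change under each of the 11 settings. Leaving out 1 library at a time gave 2.26 to 3.57 for IFITM1, 0.14 to 0.99 for IFITM2, 0.18 to 1.14 for IFITM3 and 0.093 to 0.19 for BST2. The number of genes past the threshold was far less stable than these values: 133 as reported, 211 with DESeq2 size factors, 416 with library totals, 2139 without a filter, 1386 by DESeq2, 0 by limma-voom (3404 at an unadjusted p under 0.05), and 0 (without control replicate 1) to 616 (without control replicate 2) when a library was left out; without knockdown replicate 1 it was 368 and without knockdown replicate 2 it was 7. The cause was not tested. Replicate numbers were shared between the groups, but the labels do not say that they mark a pair; the deviations of same-numbered libraries correlated at 0.203 across genes. With the replicate block 1579 genes were called, 21 of them interferon-stimulated, 2 in the signalling list, 6 restriction factors, 2 IFITM partners and 1 BST2 partner. In the interferon-stimulated list the count was 8 with library totals, 29 without a filter, 19 by DESeq2, 0 by limma-voom and 0 to 15 with a library left out, with medians of 0.64 to 0.96. In the signalling list it was 1 with library totals, 3 without a filter, 1 by DESeq2 and 0 to 1 with a library left out. Restriction factors gave 7 without a filter, 7 by DESeq2, 0 by limma-voom and 0 to 3 with a library left out. IFITM partners gave 2 without a filter and 2 by DESeq2, and BST2 partners 1 and 1. The BST2 partner median, -0.053, was 0.0087 with library totals and -0.092 to 0.057 with a library left out. Leaving out a library turned the sign of IFNE (-0.14 without control replicate 1 and -0.050 without knockdown replicate 1) and, without knockdown replicate 1, of PRRT2 (-0.44) and TMEM91 (-0.21), none of which had passed; their highest values with a library left out were 0.15, 1.02 and 1.15. Set per exon length, the mean share among the 3 IFITM genes was 0.697% for IFITM1 in the controls (0.541% of counts), 22.6% and 20.9% for IFITM2 in the controls and the knockdown, and 76.7% and 75.7% for IFITM3. Groups of 2 libraries limit every statement. A fit that leaves out a library assumes that the lone library of that group varies like the other group.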
